A study of Arabidopsis thaliana with 12 samples.

Results

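The strongest peaks that a fibrillarin CLIP-seq experiment placed outside annotated genes of Arabidopsis thaliana were gathered into 2444 loci. CLIP-seq crosslinks proteins to RNA with ultraviolet light, pulls down 1 protein and sequences the RNA that comes with it. A locus was counted where a peak named intergenic on chromosomes 1 to 5 held at least 100 reads in at least 1 library. Set stretches of ribosomal DNA were left out, while 143 loci like 5S ribosomal RNA and 3 fragments of 25S or 18S ribosomal RNA stayed in. Peaks of the same strand within 20 nt of each other were joined across libraries. This gave 6892 strong peaks of 1037099 peaks in all, and 2444 loci of 210176 intergenic loci. Members were thus chosen by the reads in their highest peak, and those heights are given as a description. The GFP control entered the choice too: 504 loci (20.6%) were strong in GFP libraries alone.

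The study had 12 libraries in 3 groups of 4 numbered replicates: seedlings expressing GFP-FIB1, seedlings expressing CFP-FIB2, and seedlings expressing GFP, the negative control. All were Col-0 seedlings of 14 days, crosslinked whole, so fewer cells holding an RNA and less of it per cell cannot be told apart. No group carried CFP alone, so the CFP tag of FIB2 has no control of its own, and the sources used here name no promoter for the tagged proteins. The labels do not say whether replicates came from separate cultures, and p-values measure the spread between these libraries. Reads in peaks ranged between 2811379 and 12438185 per library. Of the marker genes looked up, 5 shoot genes had peaks in 11 or 12 libraries, with RBCS1A between 12.84 and 175.2 RPM, reads in peaks as parts of 1e6 after scaling. Of the root genes, SCR had peaks in 12 libraries at 0.53 to 16.57 RPM, CASP1 in 9, COBL9 in 8 and EXP7 in 7, none of these 3 above 4.93 RPM. The pollen gene LAT52-like, chosen to stand for a tissue seedlings lack, had peaks in 12 libraries at 0.79 to 113.8 RPM, so the markers do not set the tissue apart cleanly. The libraries fell into 3 batches visible in the peak lists and not given in the labels. The batch term used below was thus read from the same data it is fitted to, and p-values with it depend on that reading. Batch A held GFP-FIB1 1, CFP-FIB2 1 and GFP 1 and 2. Batch B held GFP-FIB1 2, CFP-FIB2 2 and GFP 3. Batch C held GFP-FIB1 3 and 4, CFP-FIB2 3 and 4 and GFP 4. Across tested protein-coding genes, log levels correlated at 0.456 to 0.798 within a batch and at 0.135 to 0.247 between batch A and the others. Between batches B and C they correlated at 0.468 to 0.629, inside the range found within a batch, so these levels set apart batch A and not B from C. Over the tested strong loci the ranges were 0.731 to 0.95 within a batch and 0.358 to 0.597 between B and C. Between batch A and the others they were -0.415 to -0.128, so at these loci B and C stood apart too. The loci were chosen by a high peak in any 1 library. These correlations share libraries and depth and are a description.

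Fibrillarin is the enzyme that adds methyl groups within small nucleolar ribonucleoproteins of the C/D kind. Each such particle holds a guide RNA, a box C/D snoRNA, whose box C near the 5′ end and box D near the 3′ end fold together and bind the core proteins. The guide pairs with ribosomal RNA and sets the nucleotide to be methylated on its ribose. In plants many snoRNA genes stand in clusters that are transcribed as 1 precursor and then trimmed, and some are made together with a tRNA. Peaks on an unannotated snoRNA would be named intergenic.

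Of the 2444 loci, 11 lay within 200 nt of an annotated snoRNA gene on the same strand. That was 0.45% of the loci, against 0.0482% (99 loci) of the 205380 weaker intergenic loci. In 3 of the 11 the letters of a box C and a box D enclosed part of the peak. The sequences are shown because the peaks overlap the letters of a box pair that lies wholly or partly outside annotated snoRNA genes. This is a match of letters alone: a pair with box D starting 40 to 120 nt after box C stood in the 300 nt around 1.637% of all strong loci on their own strand and 0.9411% on the opposite strand, and around 1.083% of the weaker loci. Box C was searched as ATGATGA or GTGATGA and box D as CTGA, and capitals mark the boxes. L0547 is read from the + strand at chr1:28212631-28212717, L0539 from the - strand at chr1:27984784-27984877 and L0327 from the - strand at chr1:17483903-17483993, all from RefSeq TAIR10.1, 5′ to 3′.
L0547 boxes: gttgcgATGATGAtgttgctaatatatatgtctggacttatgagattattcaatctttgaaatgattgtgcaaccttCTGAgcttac
L0539 boxes: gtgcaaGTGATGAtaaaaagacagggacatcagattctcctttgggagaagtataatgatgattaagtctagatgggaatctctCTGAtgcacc
L0327 boxes: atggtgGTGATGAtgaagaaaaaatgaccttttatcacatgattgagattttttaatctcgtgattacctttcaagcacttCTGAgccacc

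From the first base of box C to the last base of box D the stretch was 75 nt at L0547, 82 nt at L0539 and 79 nt at L0327. At L0539, 37 of these bases lay inside the annotated gene AT1G74456 and at L0327, 49 lay inside AT1G07393, named AtsnoR65. The peaks of both loci lie on the box C side, beyond the bounds of those genes. At L0547 none (0) of the 75 bases lay inside an annotated snoRNA gene, and its peaks covered 70 of them. The annotated neighbour AT1G75166 ends 29 nt before the peaks.

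Another 3 of the 11 resembled other annotated snoRNAs. L0623 at chr2:2184858-2184893 on the - strand, 38 nt from AT2G04955 (AtU65-2), matched the box C/D snoRNA U49.1 (AT4G05048, chromosome 4) at 94% over 50 nt without gaps. The 2 aligned stretches are shown with the 3 differing bases in capitals.
L0623: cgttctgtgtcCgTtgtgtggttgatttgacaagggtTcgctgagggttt
U49.1: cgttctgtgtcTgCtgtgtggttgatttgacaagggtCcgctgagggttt
L1417 at chr3:17445196-17445238 matched AT5G08865 (AtsnoR88-1) at 88% over 50 nt, with 6 differing bases. L1971 at chr5:5448883-5448887 matched AT5G02575 (AtsnoR106b) at 89.2% over 37 nt with gaps, a gene close by on the same chromosome and strand, and lay 31 nt before AT5G02565 (AtsnoR106). L0539 itself matched AT1G05427 (AtsnoR44-1a) at 86.9% over 61 nt with gaps.

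Levels are given in RPM, the reads in the peaks of a locus as parts of 1e6 reads in peaks, scaled between libraries. Given in the order of replicates, L0547 held 3.57, 1170, 993 and 1530 RPM in the GFP-FIB1 libraries and 6.5, 1170, 730 and 918 RPM in the CFP-FIB2 libraries, against 1.91, 5.29, 65.1 and 84.4 RPM in the GFP libraries. All libraries of batch A were low, tagged fibrillarin included, and the groups overlapped. Within batches the log2 difference of GFP-FIB1 over GFP was 0.1 in batch A, 4.15 in batch B and 3.85 in batch C. For CFP-FIB2 over GFP it was 0.81, 4.15 and 3.26. By limma with batch as a term, on log2(RPM + 1), the change was 2.52 ± 0.71 (SE) for GFP-FIB1, with adjusted p = 0.265. It was 2.4 ± 0.71 for CFP-FIB2, with adjusted p = 0.459, so neither passed the threshold of 0.05. L0547 rests on unique sequence, with 0% of its 25-nt words found elsewhere in the genome.

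L0539, 22 nt from AT1G74456, had the largest rise over GFP of the 2047 loci tested, in both comparisons and with or without batch as a term. It held 91.3, 266, 459 and 764 RPM in the GFP-FIB1 libraries and 133, 234, 210 and 428 RPM in the CFP-FIB2 libraries, against 0, 1.23, 3.87 and 35.5 RPM in the GFP libraries. No GFP library reached the lowest fibrillarin library. Limma with that batch term gave 5.4 ± 0.63 for GFP-FIB1 (adjusted p = 0.00134) and 5.0 ± 0.63 for CFP-FIB2 (adjusted p = 0.00315). Without that term the changes were 6.1 and 5.7 with adjusted p = 0.451 and 0.684, and without the libraries of batch A they were 4.87 and 4.15 with adjusted p = 0.0851 and 0.156.

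L0327 held 12.9, 23.6, 37.4 and 83 RPM in the GFP-FIB1 libraries and 2.01, 23.8, 28.9 and 73.4 RPM in the CFP-FIB2 libraries, against 0, 0, 1.71 and 4.91 RPM in the GFP libraries. All GFP-FIB1 values exceeded those of GFP, and CFP-FIB2 replicate 1 lay among the GFP libraries. With batch as a term limma gave 3.31 ± 0.52 for GFP-FIB1 (adjusted p = 0.011) and 2.63 ± 0.52 for CFP-FIB2 (adjusted p = 0.064). The GFP-FIB1 call held in 4 of 8 fits that left out 1 library, with adjusted p between 0.0136 and 0.108, and without batch A adjusted p was 0.124. The snoRNA gene 25 nt from L0327, AT1G07393, held 0, 143, 290 and 466 RPM in the GFP-FIB1 libraries. It held 53.9, 165, 166 and 195 RPM in the CFP-FIB2 libraries, against 0, 3.17, 1.08 and 25.5 RPM in the GFP libraries.

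L0623, the U49.1-like locus, held 64.3, 270, 2830 and 2990 RPM in the GFP-FIB1 libraries and 415, 369, 1140 and 1640 RPM in the CFP-FIB2 libraries, against 5.19, 40.5, 54.2 and 198 RPM in the GFP libraries. The CFP-FIB2 libraries did not overlap with GFP, and GFP-FIB1 replicate 1 lay below GFP replicate 4. With batch as a term limma gave 3.01 ± 0.73 for GFP-FIB1 (adjusted p = 0.152) and 3.24 ± 0.73 for CFP-FIB2 (adjusted p = 0.123). It is 1 of the 10 loci with most reads over all libraries.

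L1807, 9 nt from AT4G26365, held 0, 26.6, 67.1 and 166 RPM in the GFP-FIB1 libraries and 6.5, 29.7, 53.6 and 115 RPM in the CFP-FIB2 libraries, against 0, 1.76, 0 and 7.83 RPM in the GFP libraries. L1971 held 13.7, 0, 6.74 and 10.8 RPM in the GFP-FIB1 libraries and 15.9, 0, 4.44 and 12.9 RPM in the CFP-FIB2 libraries, and none of the GFP libraries had a peak there. L1807 overlapped with GFP through both replicates 1 and L1971 through replicates 2 without a peak. Limma with batch as a term gave L1807 2.43 and 2.98 (adjusted p = 0.404 and 0.31) and L1971 2.65 and 2.64 (adjusted p = 0.146 and 0.189), for GFP-FIB1 and CFP-FIB2 over GFP in that order. L1417, L0538, L1970 and L0950 had log2 changes between -0.27 and 2.49 in the same fits, none of them called.

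**Figure D1:**
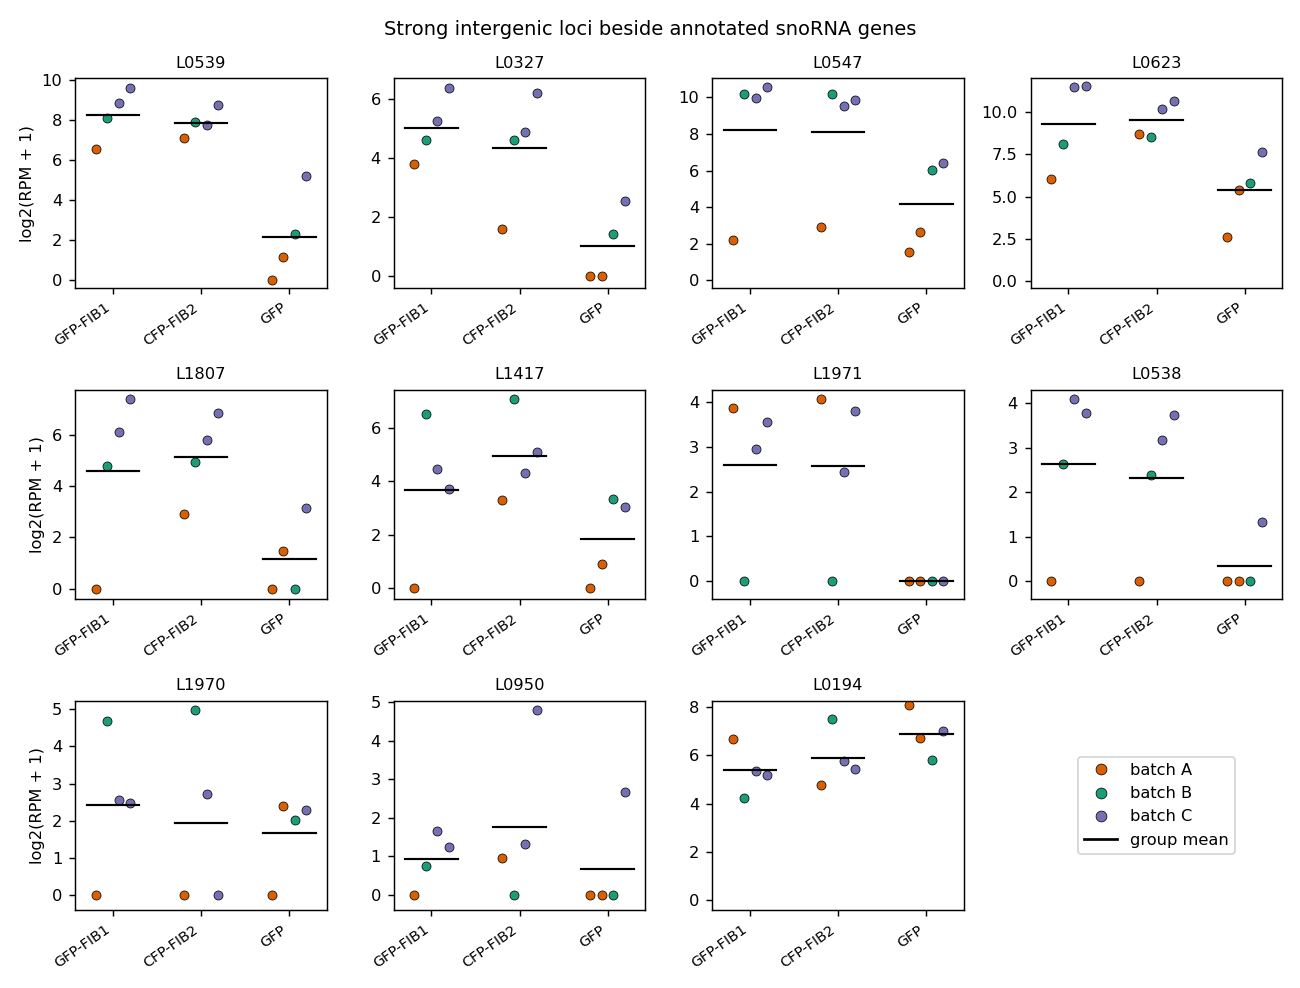
Level of the 11 strong intergenic loci beside annotated snoRNA genes, as log2(RPM + 1), with 1 point per library coloured by batch and a line at the mean of each group of 4. L0539 separates both fibrillarin groups from GFP, L0547 does so in batches B and C alone, and L0194 does not.

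L0194 at chr1:12083937-12083966 on the + strand did otherwise. It lies 3 nt before AT1G06667 (AtsnoR43.10), and its letters are shown because they hold GGTTCGA, a run typical of the T arm of a tRNA. Capitals mark the bases under the peaks, with 25 nt on each side (chr1:12083912-12083991).
L0194: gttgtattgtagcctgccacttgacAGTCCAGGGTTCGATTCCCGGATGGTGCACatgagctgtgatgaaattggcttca
L0194 held 102, 18.1, 40.4 and 36 RPM in the GFP-FIB1 libraries and 26.3, 181, 54.2 and 42.3 RPM in the CFP-FIB2 libraries, against 269, 104, 54.5 and 128 RPM in the GFP libraries. The groups overlapped and both fitted changes were below 0 (-1.4 and -0.91, adjusted p = 0.701 and 0.878 by limma with batch as a term). The snoRNA gene 3 nt downstream held 38.7, 482, 84.8 and 127 RPM in the GFP-FIB1 libraries and 114, 636, 52.9 and 78.1 RPM in the CFP-FIB2 libraries, against 0, 13.7, 1.71 and 4.3 RPM in the GFP libraries. AT1G06667 rose by 4.97 and 5.11 on the log2 scale, with adjusted p = 0.0191 in both comparisons by the same fit. GGTTCGA stood on the strand of the peak within 25 nt of 1.06% of the strong loci, against 0.411% of the weaker intergenic loci. On the opposite strand the shares were 0.286% and 0.297%.

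With batch as a term, 9 of the 11 snoRNA neighbours had a log2 change above 0 in each comparison, though not the same 9, with a median of 2.43 in GFP-FIB1 and 2.49 in CFP-FIB2. Several of the 11, L0327, L1807 and L1971 among them, reached 100 reads in fibrillarin libraries and in no GFP library. The count and medians thus describe that choice and support nothing. The 5 weaker snoRNA neighbours tested had medians of 0.01 and 0.45 in the same fit, with 3 and 4 of the changes above 0. The medians over all 26722 features tested were -0.07 and -0.02. Both comparisons use the same GFP libraries. Annotated snoRNA genes, a list taken from earlier work on these data, give the scale of the pathway: 186 of 287 were tested, and 51 rose in GFP-FIB1 and 45 in CFP-FIB2 by limma with batch as a term at adjusted p under 0.05, while none (0) fell. Their median changes were 3.34 and 3.35 for 95 box C/D genes and 0.7 and 1.13 for 25 box H/ACA genes, which guide pseudouridylation and do not hold fibrillarin. Peaks named for the FIB1 gene held 16.5, 221.1, 292.7 and 554.3 RPM in the GFP-FIB1 libraries. They held 77, 249.6, 191.3 and 287.2 RPM in the CFP-FIB2 libraries, against 23.2, 35.2, 5.3 and 21.5 RPM in the GFP libraries. The changes of 2.67 and 2.86 did not pass (adjusted p = 0.357 and 0.459 by the same limma fit). Peaks named for FIB2 and for NOP56, another core protein of the particle, changed by 0.43 to 0.7 without passing. Reads of a snoRNA inside such a gene would be counted with it, so mRNA and snoRNA are not told apart here, which was not tested.

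Over all features the fit without a batch term called nothing. In GFP-FIB1 over GFP limma called 0 of 26722 features (0.0%) at adjusted p under 0.05 in either direction, and 0 of the 2047 strong loci tested. At an unadjusted p under 0.05 it had 17 loci higher and 29 lower, against 1.46% and 0.913% of all features. CFP-FIB2 over GFP also had 0 called (0.0%), with 19 loci higher and 12 lower at an unadjusted p under 0.05, against 1.7% and 0.408% of all features. The remaining 397 loci had too few reads in too few libraries to be tested. The filter asked for 10 reads in at least 4 libraries at median depth, which a locus high in 1 group of 4 can pass on that group alone.

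With batch as a term, 2 loci rose in GFP-FIB1 (L0539 and L0327), where 0.24% of all features were called higher, and 1 fell, where 0.00748% were called lower. In CFP-FIB2, L0539 alone rose, where 0.195% were called higher, and none (0) fell (0.0%). At an unadjusted p under 0.05, 276 of 2047 loci (13.5%) were lower in GFP-FIB1 than in GFP, where 4.48% of all features were, and 34 were higher, where 2.99% were. For CFP-FIB2 175 loci (8.55%) were lower, where 3.0% of all features were, and 33 were higher, where 3.3% were. Without GFP replicate 4 the GFP-FIB1 count was 166 and without GFP-FIB1 replicate 2 it was 142. The CFP-FIB2 count was 93 and 99 without CFP-FIB2 replicates 3 and 4, and 100 and 104 without GFP replicates 3 and 4. Median changes over the loci were -0.35 and -0.38 with the batch term, and -0.04 and 0.07 without it, where 995 and 1066 of the 2047 loci were above 0. The rule took loci that peaked in GFP as readily as any other, and these counts describe that choice and the GFP libraries together.

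**Figure D2:**
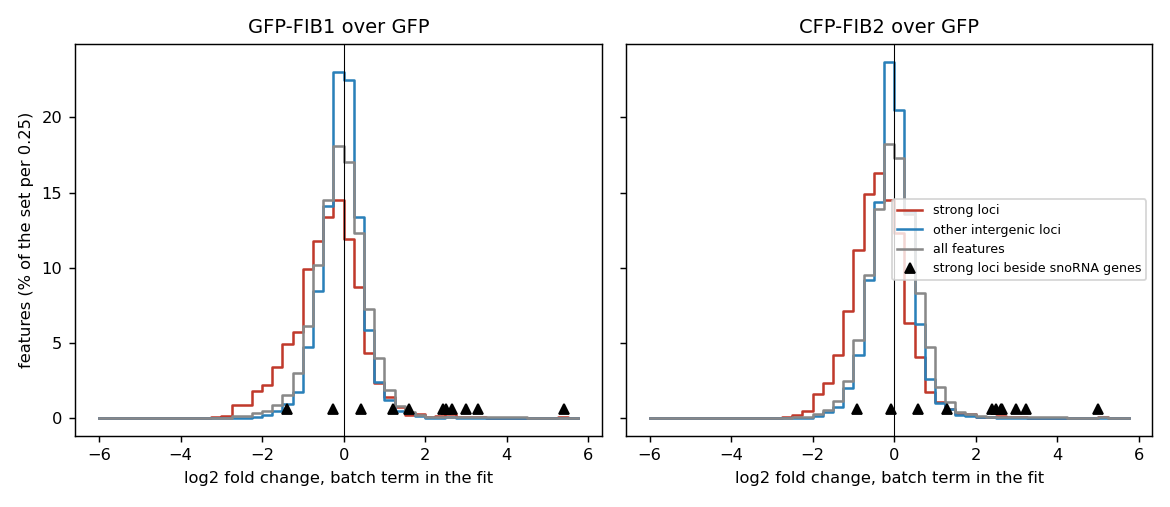
Distribution of log2 fold changes with batch as a term for 2047 strong loci, 4473 other intergenic loci and all 26722 features tested, in percent of each set per step of 0.25, with triangles for the 11 strong loci beside snoRNA genes. In this fit the strong loci had a median of -0.35 in GFP-FIB1 and -0.38 in CFP-FIB2, against -0.04 and 0.07 without the batch term, and most snoRNA neighbours lie to the right of 0.

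L0142 at chr1:9628961-9628967, 2223 nt from the protein-coding gene APL2, was the locus that fell. It held 0, 6.1, 12.4 and 4.27 RPM in the GFP-FIB1 libraries, against 2.19, 2.29, 166 and 54.6 RPM in the GFP libraries. GFP replicates 3 and 4 were high, and the groups overlapped. Limma with batch as a term gave -2.85 ± 0.52 (adjusted p = 0.0296), which held in 3 of 8 fits that left out 1 library, and without batch A adjusted p was 0.134. The CFP-FIB2 libraries held 0, 22.7, 11 and 14.5 RPM, a change of -2.06 with adjusted p = 0.241.

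Groups that did not overlap at all were few. In GFP-FIB1, 3 loci lay above all GFP libraries and 19 lay below them, where 0.79% and 0.846% of all features did. The 3 were L0539, L0327 and L0436, and the last held 5.42 to 10.1 RPM, against 3.87 to 5.29 RPM in GFP. In CFP-FIB2, 5 loci lay above and 6 below, where 1.24% and 0.423% of all features did. Besides L0539 and L0623, the 5 were L0666, L1473 and L0298. L1473 at chr3:20586082-20586084, 3577 nt from the gene RBL, held 0, 13.6, 11.5 and 27 RPM in the GFP-FIB1 libraries and 0.619, 13.6, 6.8 and 8.15 RPM in the CFP-FIB2 libraries, and no GFP library had a peak. L0666, whose letters match the mitochondrial genome at 100%, held 426 RPM in GFP-FIB1 replicate 2 and 603 RPM in CFP-FIB2 replicate 2, under 10 RPM in the other fibrillarin libraries, and no peak in GFP. For L0666 and L1473 a peak in 4 of 4 CFP-FIB2 libraries against 0 of 4 GFP libraries gave p = 0.0286 by Fisher's exact test, two-sided, the smallest this design allows, and adjusted p = 1. As neither had a GFP peak, both loci entered the set through fibrillarin libraries. A peak in 4 against 0 libraries was seen in 0.0244% of all features for CFP-FIB2 over GFP. For GFP-FIB1 over GFP it was seen in none (0) of the strong loci and 0.0171% of all features.

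Among the loci below GFP, levels were modest. L1723 at chr4:9035125-9035128, 1477 nt from SWEET17, held 7.94, 5.07, 9.64 and 6.66 RPM in the GFP-FIB1 libraries, against 31.7, 52.5, 75.4 and 41.4 RPM in the GFP libraries. L0188 at chr1:11731636-11731642 held 14.7, 1.12, 8.73 and 6.15 RPM in the GFP-FIB1 libraries and 10.4, 4.1, 9.37 and 5 RPM in the CFP-FIB2 libraries, against 108, 51.8, 15 and 20 RPM in the GFP libraries. L0188 lay below GFP in both groups. It held 130 to 394 reads in the GFP libraries and at most 95 in any fibrillarin library. It thus entered the set through GFP alone, and its fall describes that choice in part. L1723, fitted with batch as a term, changed by -2.43 ± 0.58 in GFP-FIB1 (limma, adjusted p = 0.135) and L0188 by -2.16 ± 0.5 and -2.0 ± 0.5 (adjusted p = 0.117 and 0.221), so none was called. L2028 at chr5:8619972-8619975, 108 nt from AT5G25030, changed by -2.09 ± 0.43 in CFP-FIB2 (adjusted p = 0.076).

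Between GFP-FIB1 and CFP-FIB2 no locus was called, with or without the batch term (0 of 26722 features, 0.0%). At an unadjusted p under 0.05 with batch as a term 30 loci were higher and 49 lower in GFP-FIB1, where 1.76% and 2.73% of all features were. L2374, 144 nt from AGD5, lay above in GFP-FIB1, with 14.1 to 26 RPM against 4.34 to 11.5 RPM in CFP-FIB2. L0763, L1524 and L1856 lay below. L1856, 55 nt from the lignin gene CAD5, held 3.21 to 4.76 RPM in GFP-FIB1, against 6.72 to 23.8 RPM in CFP-FIB2. Of all features 0.348% lay above and 0.651% below in this way.

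Most reads of the strong loci came from few places. The 10 loci with most reads held 28.96% of the scaled reads of all loci and the top 100 held 56.1%. Of the 10, 5 belonged to none of the sequence classes described here, and each had its high values within 1 or 2 of the batches. Sequences of 3 of them are shown because the peaks are narrow and read from 1 place. With 25 nt on each side of the locus, the stretches are chr2:814647-814703 (+) for L0582, chr2:1145325-1145387 (+) for L0590 and chr5:22794230-22794284 (-) for L2388. Capitals mark the bases under the peaks.
L0582: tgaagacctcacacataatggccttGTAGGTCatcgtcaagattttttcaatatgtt
L0590: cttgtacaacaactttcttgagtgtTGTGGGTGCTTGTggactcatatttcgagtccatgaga
L2388: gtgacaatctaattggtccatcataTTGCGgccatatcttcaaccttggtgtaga

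L0582, 6875 nt from the nearest protein-coding gene on its strand, held 1.98, 331, 5150 and 13000 RPM in the GFP-FIB1 libraries and 1.39, 107, 5340 and 5100 RPM in the CFP-FIB2 libraries, against 3.28, 5.46, 163 and 14600 RPM in the GFP libraries. L0590, 11231 nt from the gene GEK1, held 1.98, 27.7, 3870 and 5390 RPM in the GFP-FIB1 libraries and 3.56, 10.5, 4450 and 4240 RPM in the CFP-FIB2 libraries, against 7.92, 2.47, 7.92 and 7050 RPM in the GFP libraries. Both were high in batch C, the GFP library included, and near 0 in batch A. L2388, 8650 nt from CSN6A, was the reverse, with 974, 43.1, 25 and 41.7 RPM in the GFP-FIB1 libraries and 1460, 15.7, 32.3 and 38.7 RPM in the CFP-FIB2 libraries, against 2330, 2780, 42.2 and 15.8 RPM in the GFP libraries. Its 4 high values are those of batch A. The changes over GFP at these 3 loci with batch as a term were between -1.12 and -0.07, with adjusted p between 0.794 and 0.99 by limma. Without that term they were 2.49 and 1.68 at L0582, 2.46 and 2.25 at L0590 and -1.66 and -1.8 at L2388 for GFP-FIB1 and CFP-FIB2, with adjusted p = 0.999 and 1, so the sign at L0582 and L0590 turned with the batch term.

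**Figure D3:**
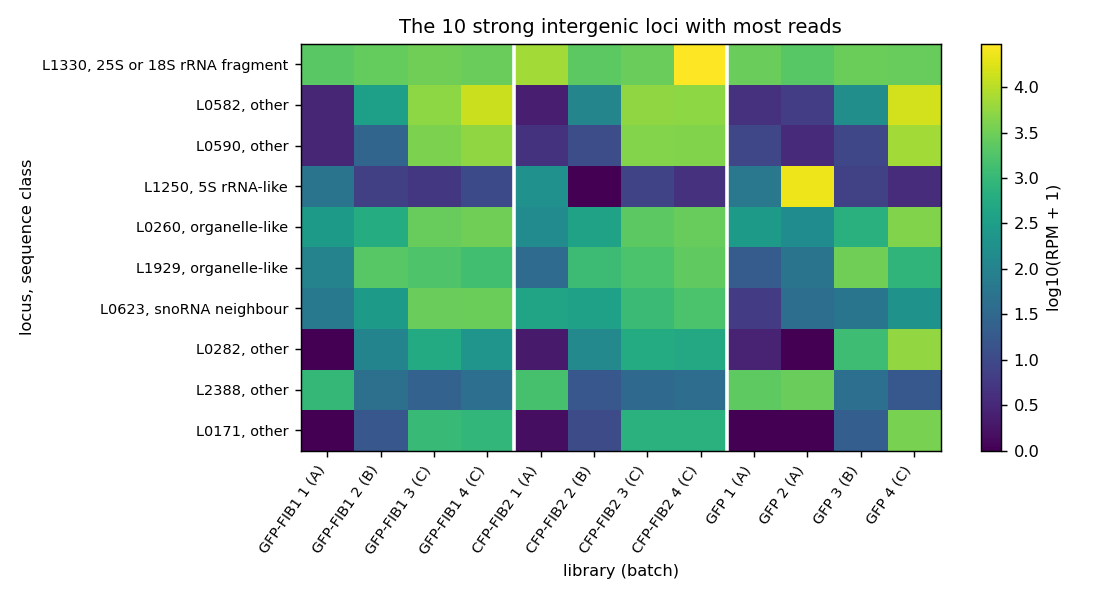
Level of the 10 strong intergenic loci with most reads in each library, as log10(RPM + 1), with white lines between the GFP-FIB1, CFP-FIB2 and GFP libraries and the batch in brackets. L0582 and L0590 are high in the batch C libraries of all 3 groups, L2388 in the batch A libraries, and L1250 in GFP replicate 2 alone, at 23200 RPM.

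Many loci drew their level from 1 side of the batches. Of the 2444 loci, 590 (24.1%) drew at least 90% of their level from batch A and 1483 (60.7%) at most 10%. Among the tested loci these shares were 21% and 61.5%, against 11.6% and 64.1% of the 4473 other intergenic loci tested and 1.61% and 22.4% of 17289 protein-coding genes. Strong peaks occurred in batch A alone at 684 loci, in batch B alone at 554 and in batch C alone at 581, and in all 3 batches at 94. By group, 741 loci (30.3%) were strong in all 3 groups, 304 in GFP-FIB1 alone, 291 in CFP-FIB2 alone and 98 (4.01%) in both fibrillarin groups and not in GFP. Since a threshold on the highest library favours features that vary between libraries, these comparisons are a description.

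**Figure D4:**
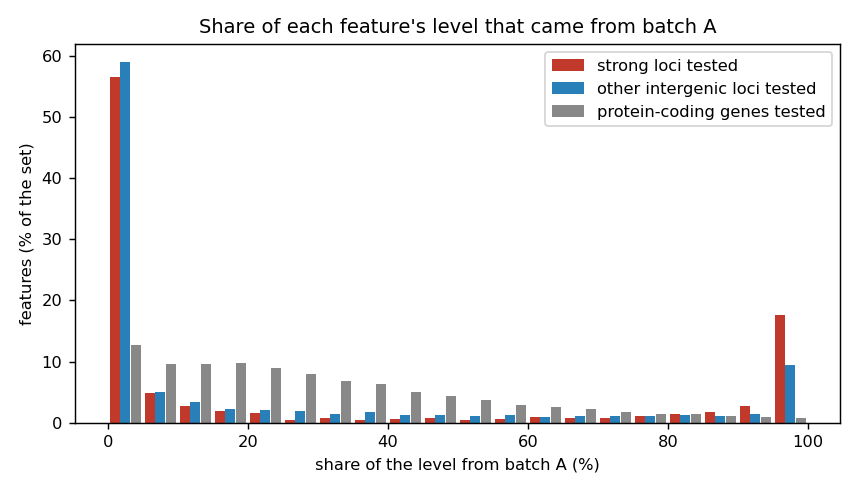
Share of the level that came from batch A (mean of the batch means, in percent) for 2047 strong loci, 4473 other intergenic loci and 17289 protein-coding genes, in percent of each set. At or under 10% lie 61.5% of the strong loci, 64.1% of the other intergenic loci and 22.4% of the genes, and at or over 90% lie 21%, 11.6% and 1.61%.

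A class of 143 loci resembled 5S ribosomal RNA, the small RNA of the large ribosomal subunit, whose genes stand in long tandem arrays. The classes by sequence were made after the data were seen. Of the 143, 87 lay on chromosome 3 between positions 13592626 and 14224294 and 46 on chromosome 5. For 119 of them over 50% of the 25-nt words occur elsewhere in the genome, so their reads may belong to other copies. L2174 and L1250 are shown because the class was aligned to L2174 and its highest peak lay on L1250. With 25 nt on each side of the locus, the stretches are chr5:12824203-12824345 (-) and chr3:13597624-13597689 (+), with capitals for the bases under the peaks.
L2174: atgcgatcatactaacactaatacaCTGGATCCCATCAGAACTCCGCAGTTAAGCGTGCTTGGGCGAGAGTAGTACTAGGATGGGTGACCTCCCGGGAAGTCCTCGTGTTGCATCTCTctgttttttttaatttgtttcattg
L1250: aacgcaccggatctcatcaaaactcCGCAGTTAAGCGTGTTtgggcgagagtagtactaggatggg
The 5S-like loci took 0.833, 0.196, 0.0954 and 0.144% of the reads in peaks in the GFP-FIB1 libraries and 0.512, 0.0617, 0.117 and 0.0394% in the CFP-FIB2 libraries, against 0.751, 4.72, 0.0799 and 0.0402% in the GFP libraries. The 4 libraries of batch A were the highest. L1250 alone held 23200 RPM in GFP replicate 2 and at most 181 RPM in any other library. L2174 held 880, 373, 37.5 and 85.7 RPM in the GFP-FIB1 libraries and 1320, 34.3, 26.1 and 47.1 RPM in the CFP-FIB2 libraries, against 1370, 2320, 75 and 22.6 RPM in the GFP libraries. In the class the median change with batch as a term was 0.03 in GFP-FIB1 and -0.1 in CFP-FIB2, and none (0) of its 123 tested loci was called.

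Fragments of the large ribosomal RNAs made up 3 more loci. L1330 at chr3:14192874-14192996 matched the 25S region beside the 5.8S gene AT3G41979 at 100% and held 2170, 2570, 3230 and 2860 RPM in the GFP-FIB1 libraries and 7080, 2200, 2850 and 29900 RPM in the CFP-FIB2 libraries, against 2830, 2020, 2940 and 2720 RPM in the GFP libraries. CFP-FIB2 replicates 4 and 1 stood above the rest, and the groups overlapped. Replicate 4 also had the lowest scaling factor, 0.3116, and before scaling the 3 loci took 0.924% of its reads in peaks, against 0.276 to 0.614% in the other libraries. L1744 is shown because its peaks cover a fragment whose letters match ribosomal RNA at 100%, amid other sequence. The stretch is chr4:10112411-10112497 (+), with 25 nt on each side of the locus.
L1744: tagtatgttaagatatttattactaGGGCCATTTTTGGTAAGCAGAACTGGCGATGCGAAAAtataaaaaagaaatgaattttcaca
L1744, 2322 nt from the potassium channel gene KAT2, held 513, 215, 215 and 227 RPM in the GFP-FIB1 libraries and 287, 1030, 183 and 257 RPM in the CFP-FIB2 libraries, against 437, 195, 1250 and 770 RPM in the GFP libraries. Neither locus passed in either comparison with batch as a term.

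Copies of organelle sequence made up 36 loci. L0260 at chr1:15377810-15377872 matched the chloroplast genome at 96.7% and held 273, 601, 2690 and 3190 RPM in the GFP-FIB1 libraries and 146, 378, 2200 and 2730 RPM in the CFP-FIB2 libraries, against 276, 150, 694 and 4160 RPM in the GFP libraries. L1929 at chr5:3111015-3111064 matched it at 100% and held 101, 2090, 1720 and 1330 RPM in the GFP-FIB1 libraries and 36.4, 1170, 1600 and 2460 RPM in the CFP-FIB2 libraries, against 19.4, 50.9, 3220 and 852 RPM in the GFP libraries. Both were low in batch A in all groups. The class had median changes of -0.05 and 0.0 over GFP with batch as a term, and 0 of its 31 tested loci were called. A further 9 loci lay on runs of A, such as L0865 with 164, 5.67, 0 and 0 RPM in the GFP-FIB1 libraries and 556, 3.66, 0 and 0 RPM in the CFP-FIB2 libraries, against 1800, 735, 3.33 and 0 RPM in the GFP libraries. For 8 of the 9 at least 90% of the level came from batch A.

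Together the 2444 loci took 5.71, 3.34, 6.28 and 8.52% of the reads in peaks in the GFP-FIB1 libraries and 3.55, 4.44, 6.41 and 2.57% in the CFP-FIB2 libraries, against 6.91, 9.39, 6.07 and 11.6% in the GFP libraries. The means were 5.96 ± 2.13% in GFP-FIB1, 4.24 ± 1.64% in CFP-FIB2 and 8.5 ± 2.52% in GFP (SD, n = 4 each). The snoRNA neighbours ran the other way, with 0.32 ± 0.243% in GFP-FIB1 and 0.164 ± 0.104% in CFP-FIB2, against 0.029 ± 0.0118% in GFP. Several of them entered the set through fibrillarin libraries alone, so these shares describe that choice in part. In batch A they were 0.0359% in GFP-FIB1 and 0.0513% in CFP-FIB2, against 0.0359 and 0.0196% in GFP. No test was made on these sums.

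The typical strong locus was narrow, and its distance to genes was near that of the weaker loci. Its median width was 5 nt, and 87.36% of the loci were 10 nt or less, while the median over weaker intergenic loci was 12 nt. In their highest peak 1219 loci (49.88%) had fewer than 200 reads and 304 had at least 1000. At 1041 loci (42.59%) only 1 library reached the threshold and at 15 loci all 12 did. All distances to genes given here are to genes on the same strand, and genes on the other strand were not counted. The median distance to a protein-coding gene was 2584 nt, against 2319 nt for the weaker loci. Within 300 nt upstream of such a gene lay 169 loci (6.91%, against 7.14%), and within 300 nt downstream 129 (5.28%, against 5.86%). Just inside the threshold, L0037, L0197 and L0198 had 100 reads in their highest peak, and 3 loci just outside it had 99. Among loci with a peak in 1 library alone, those with most reads were L1420, with 1948 in GFP-FIB1 replicate 2, and L1556, with 1431 in GFP replicate 3.

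Guanine was more frequent at and after the centre of the loci than around them. In the 10 nt after the centre it made up 28.6% of bases and in the 10 nt before it 19.1%. The weaker intergenic loci had 22.1% after and 19.4% before the centre. At 20 to 30 nt on either side the shares were 18% and 16.2%. Leaving out the sequence classes above gave 28.6% after and 18.5% before. These shares are counts of bases over loci without a test, and depend on how peaks are drawn.

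**Figure D5:**
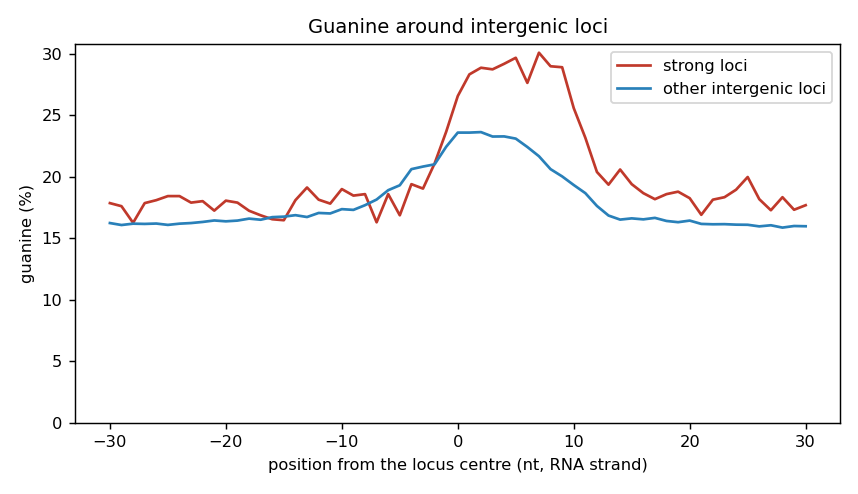
Share of guanine at each position from the centre of the locus, read on the RNA strand, for 2444 strong loci and 205380 other intergenic loci. At strong loci the rise lies mostly on the 3′ side of the centre, with a mean of 28.6% over the 10 nt after it. At the others that mean is 22.1%, and the rise lies around the centre, with 22.43% at -1 nt, 23.62% at 2 nt and 20.61% at 8 nt.

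Boxes C and D on the strand of the peak, in a window of 300 nt and with box D starting 40 to 120 nt after box C, were found at 40 loci (1.637%), against 1.083% of the weaker loci. On the opposite strand they were found at 23 loci (0.9411%), against 0.9037%. Away from snoRNA genes the paired letters did not go with a rise over GFP at the loci with most reads. L1177 at chr3:10692701-10692708 held 0, 90.3, 102 and 42.5 RPM in the GFP-FIB1 libraries and 0, 256, 29.2 and 31 RPM in the CFP-FIB2 libraries, against 0, 0, 648 and 146 RPM in the GFP libraries. L0630, L1121, L0825, L0366 and L1700, the next by reads, had log2 changes between -1.21 and 0.5 with batch as a term, none called.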

How the data were processed

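Per the labels, RNA of crosslinked seedlings was released with proteinase K and made into libraries with a small RNA kit. The authors deposited 1 peak list per library, called per library, with a p-value for each peak. The whole number ending each peak name was read as reads in the peak, a meaning the sources used here leave unstated, and for that reason count models were not used. The submitters' processing notes name DESeq2. The aligner, peak caller and genome build were not given in the sources used here. Coordinates were set against RefSeq TAIR10.1. Where peaks of 1 library overlapped, the highest was kept, which removed 4107 peaks (0.396%). A locus or gene without a peak counts as 0, which is not a measured level, and total depth is unknown.

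Levels were scaled by TMM. Features that reached 10 reads, at median depth, in 4 or more libraries were fitted with limma 3.58.1 (R 4.3.3) on log2(RPM + 1) over all 12 libraries, with a mean-variance trend and Benjamini-Hochberg adjustment over all 26722 features. Genes were taken by the peak names, so snoRNA reads named for a host gene are not in the snoRNA lists. The script was tested on simulated data. Sequence likeness was found with BLAST at 85% identity or more. Loci were named if among the 10 with most reads, called, among the 5 largest changes without overlap, carrying boxes C and D, at the threshold or seen in 1 library, and the snoRNA neighbours were a fixed group. L2174 and the A-run, 5S-like and organelle-like examples were chosen after their values were seen. The members and lists were chosen with earlier results of these data known. GFP-FIB1 and CFP-FIB2 libraries of the same number deviated together from their group means. GFP replicates 1 and 4 deviated with them too (r = 0.535 to 0.676). GFP replicate 3 did so less (0.322 and 0.241) and GFP replicate 2 did not (-0.079 and -0.263). The labels give no batch, so the main comparisons have no block.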

Additional observations from a re-analysis of the deposited data

Results flagged for a closer look

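Of 39 groups of 4 libraries examined at 13 loci (the 10 with most reads and those called), 10 had 1 library far from the other 3. Chance gives about 1 in 20 groups, and loci picked for a high peak are more prone to it. GFP replicate 4, the only GFP library of batch C, stood alone at 5 loci: 14600 RPM at L0582, 7050 RPM at L0590, 4160 RPM at L0260, 3720 RPM at L0171 and 35.5 RPM at L0539. Replicates 1 of GFP-FIB1 and CFP-FIB2, the libraries of batch A in those groups, stood alone at L2388, with 974 and 1460 RPM, and at L1250, with 51.6 and 181 RPM. GFP replicate 2 held 23200 RPM at L1250. The fibrillarin libraries at L0539 all lay above GFP replicate 4.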

How the results depend on the processing

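Without a batch term the number of loci called was 0 in all 3 comparisons under both other scalings and both other pseudocounts. The fit of 2 groups alone and each fit without 1 library gave 0 too. The 1840 tested loci with at most 50% of their words elsewhere were counted within the main fit and not refitted. Their count of 0 was thus fixed by it and is no check. With 3 batches as a term the number of loci called was 3 for GFP-FIB1 over GFP and 1 for CFP-FIB2 over GFP. No filter on low values gave 3 and 5, and 1 for GFP-FIB1 over CFP-FIB2 (L1330), from features that include zero variance and other loci than with the filter. Over all 245707 features that setting called 36, 45 and 5 higher and 10, 11 and 16 lower, in the same order. The replicate block gave 2 (L0539 and L0327) and 4 (L0539, L0623, L1807 and L0327) of 2047 loci, all higher. Of all 26722 features it called 97 and 93 higher. Fits without 1 library, with and without the batch term, gave 0 to 11 loci for GFP-FIB1 and 0 to 2 for CFP-FIB2 over GFP. The 11 (5 higher and 6 lower) came without GFP-FIB1 replicate 1 with the batch term, where 106 of 26722 features were called higher and 8 lower. L0539 was called in 8 of 8 such fits with the batch term in both comparisons. Without batch A, a setting added after seeing the data like the batch term without 1 library, 1 locus was called in GFP-FIB1 (L2072, lower) and not L0539. Of all 26722 features that setting called 32 higher and 4 lower in GFP-FIB1 over GFP. Loci lower at an unadjusted p under 0.05 with the batch term numbered 142 to 297 for GFP-FIB1 and 93 to 245 for CFP-FIB2 without 1 library. No called value changed sign. The median over the strong loci did: it was -0.04 for GFP-FIB1 and 0.07 for CFP-FIB2 without the batch term, up to 0.44 and 0.58 without 1 library, and -0.35 and -0.38 with the batch term. A threshold of 50 reads gave 4913 loci, 200 reads gave 1226 and 100 reads in 2 libraries or more gave 1403. Without 1 library there were 2251 to 2428. Leaving out the TMM factor moved the median of all features from 0.16 to -0.06 for CFP-FIB2 over GFP and from -0.07 to 0.19 for GFP-FIB1 over CFP-FIB2 (log2). The causes were not tested. Depth is known as reads in peaks alone, and a locus at 0 may have had reads below the peak caller's limit.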

Other observations

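Replicates 2 of GFP-FIB1 and CFP-FIB2 share batch B with GFP replicate 3. At 23 loci both held at least 10 RPM while GFP replicate 3 was under 1 RPM, and at 35 loci the reverse held. No such count over all features is given here. The loci were chosen for a high peak in any library, so these counts describe that choice. L0298 at chr1:16379858-16379863 was 1 of the 23, with 0, 23.7, 6.28 and 15.2 RPM in the GFP-FIB1 libraries and 3.41, 30.2, 0.887 and 3.94 RPM in the CFP-FIB2 libraries, against 0, 0, 0.45 and 0.461 RPM in the GFP libraries. It was called in GFP-FIB1 over GFP when GFP-FIB1 replicate 1 was left out of the fit with the batch term.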
